A study of Mus musculus with 4 samples.

Results

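The 30 genes described here carry out or control the synthesis of fatty acids from acetyl-CoA, supply the partner enzymes of the elongation cycle, and activate, bind or release fatty acids as acyl-CoA. They were chosen by name, leaving out the Elovl, Scd and Fads genes, and all 30 were found among the 51826 features of the deposited table. Of these, 29 matched by symbol, and Hsd17b8 was matched through RefSeq synonyms to the feature named H2-Ke6. The samples came from mouse bone marrow cells of the lineage-negative, c-kit positive fraction, which is rich in stem and progenitor cells. By the titles that fraction was transduced with MLL-AF9, a fusion oncogene of acute myeloid leukaemia, in all samples. The samples were taken at week 2, so the name of the fraction need not describe the cells as taken. Of the samples, 2 were wild type (WT) and 2 lacked Elovl6 (KO), the elongase that lengthens palmitate. The sources used here do not give how Elovl6 was deleted, the age and strain of the mice, or what drove MLL-AF9. Whether the replicates are separate mice or cultures is not stated, so every p-value reflects the spread between these libraries, which may be only technical.

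In the cytosol, citrate exported from mitochondria is cleaved to acetyl-CoA, which acetyl-CoA carboxylase turns into malonyl-CoA. Fatty acid synthase joins these units into palmitate, and elongation to longer chains follows in the endoplasmic reticulum through a condensing ELOVL enzyme, a ketoreductase, a dehydratase and an enoyl reductase. Palmitate is the main substrate of ELOVL6, so the product of the synthase meets the missing enzyme at this step. SREBP1 and the carbohydrate-responsive factors MondoA and ChREBP are known to drive transcription of many of these genes. A separate set of mitochondrial enzymes makes the octanoyl chains from which lipoic acid is formed.

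The 4 libraries held 8986502 to 11941588 exon counts and 6670711 to 8936201 uniquely placed intron reads, of which a single feature held 11.1% to 13.8%. Unspliced RNA is a known source of intron reads. Elovl6 had 1290 and 1673 exon counts in WT and 17 and 34 in KO, a 49.7-fold lower level, which accords with the labels. Intron reads of Elovl6 numbered 2666 and 3479 in WT against 1172 and 1557 in KO. Of the genes that define the labelled cells, Kit stood at 135 ± 6.64 CPM (library-size-scaled counts; SD, n = 2) in WT and 125 ± 19.4 in KO, and the pan-leukocyte gene Ptprc at 329 ± 14.2 and 344 ± 0.701. Markers of 10 cell types were summed per library. Monocyte and macrophage markers summed to 1002 to 1022 CPM in WT against 1534 to 1887 in KO. All 8 tested had positive log2 fold changes, and 1 of them, Lyz2, passed the test. Progenitor markers summed to 5681 to 6112 in WT and 3923 to 5296 in KO, neutrophil markers to 5773 to 6067 and 4036 to 6362, and eosinophil markers to 90.7 to 396 and 16.7 to 49.5. Log2 fold changes were positive for 2 of the 8 progenitor, 5 of the 10 neutrophil and 0 of the 5 eosinophil markers tested. Over all genes tested, 49.3% were positive. The sums were 91.8 to 110.1 and 67.0 to 79.7 CPM for mast cell and basophil, 629.9 to 631 and 599 to 629.7 for erythroid, and 154 to 155 and 121 to 153 for stromal and endothelial markers. Only 2 of the 7 erythroid and 2 of the 6 stromal and endothelial markers passed the filter on low counts. Each sum is led by its most abundant genes, so none of the sums measures cell content. B cell markers (15.7 to 16.2 and 5.46 to 8.78), T and NK cell markers (10.5 to 10.9 and 11.0 to 11.2) and adipocyte markers (2.43 to 2.75 and 4.56 to 9.78) were low. In exon counts only Lyz2 and Car2 of the erythroid list, which was lower, passed the test among these markers. In intron reads those 2 also passed, and so did the eosinophil marker Epx and the progenitor marker Meis1, both lower (log2 fold changes -2.69 and -0.41; edgeR adjusted p = 0.0454 and 0.0354). The exon levels of Meis1, Hoxa9 and Myb were 244, 217 and 799.6 CPM in WT against 198, 176 and 696 in KO, with both KO libraries below both WT libraries. Of all genes tested, 27.0% lay in that way. In the same list Cd34 did so too, both KO libraries lay above WT for Ptprc, and the groups overlapped for Kit and Flt3. The exon log2 fold change of Flt3 was 0.09. Among the markers listed at 0 were Ccr3, Hba-a1, Ms4a1, Cd3e, Cd8a and Lep. KO replicate 2 stood farthest from WT in the monocyte, progenitor and eosinophil sums, and the part these shifts play in the results below was not tested. In bulk RNA, fewer cells of a type and less RNA per cell cannot be told apart.

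Exon counts of most synthesis and activation genes differed little between WT and KO. Of the 30 genes, 28 passed the filter on low counts, and 0 of these were called by edgeR's quasi-likelihood test at an adjusted p under 0.05, where 2.8% of all 11738 genes tested were (1.82% higher and 0.98% lower). DESeq2 called 1, Hacd4, against 4.12% of all genes, and limma-voom 0 against 1.89%. At an unadjusted p under 0.05 there were 4, Hacd4, Slc25a1, Acsl3 and Acly, against 20.8% of all genes. All 4 had higher values in KO, against 11.7% of all genes with higher and 9.11% with lower values. The log2 fold change of KO against WT was positive in 18 of the 28 (64.3%, against 49.3% of all genes tested), with a median of 0.07 against -0.00 for all genes. With the sign left out, its median size was 0.12 in the 28 and 0.14 over all genes tested, so small differences were common in these data. The 95% interval of the fold change lay within 1.25-fold of no change in either direction for 14 of the 28, within 1.5-fold for 20 and within 2-fold for 24. The intervals of Acacb, Acss2, Hacd4 and Mlxipl reached beyond 2-fold. With 2 libraries a group, an exact permutation test of a single gene cannot go below p = 1/3.

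**Figure D1:**
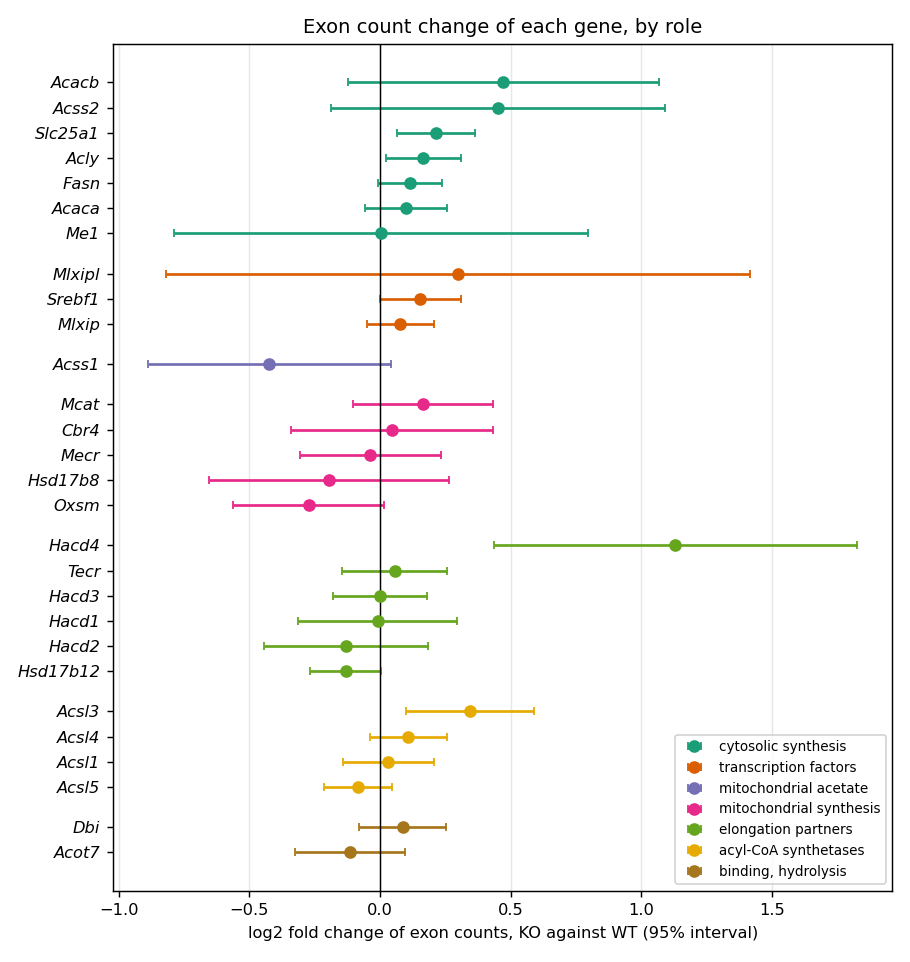
Log2 fold change of exon counts, KO against WT, for the 28 genes tested, grouped and coloured by role; points are edgeR estimates from 2 against 2 libraries and bars are 95% intervals. Hacd4 lies at 1.13, apart from the others, and the 7 cytosolic synthesis genes lie at or above 0.

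The synthase itself was among the most abundant RNAs of the set. Levels were compared between genes as CPM per kilobase of deposited exon length (RPKM), so they depend on the annotated length. By RPKM, Fasn stood at 147.8 ± 1.05 (SD, n = 2) in WT and 159.9 ± 1.36 in KO, and ranked 263 among the genes tested. Acly followed with 114.7 ± 6.28 RPKM in WT, then the acyl-CoA synthetase gene Acsl5 with 81.4 ± 0.946, the enoyl reductase gene Tecr with 75.0 ± 3.84 and the acyl-CoA binding protein gene Dbi with 67.3 ± 4.46. The values of Tecr and Dbi are not separated by much more than their spread. Hsd17b12 (54.9 ± 0.639), Slc25a1 (45.7 ± 0.194) and Srebf1 (33.1 ± 1.47) came next. At the other end, Acss2 was at 0.698 ± 0.0512, Acacb at 0.549 ± 0.136, Me1 at 0.544 ± 0.0917 and Mlxipl at 0.249 ± 0.116 RPKM in WT. Acacb and Me1 did not differ beyond their spread. Acsl6 had 1 exon count in KO replicate 1 and none elsewhere, and Acss3 had none in any library, so both lay below the 3 counts (0.251 to 0.334 CPM) taken as the floor and were not tested.

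**Figure D2:**
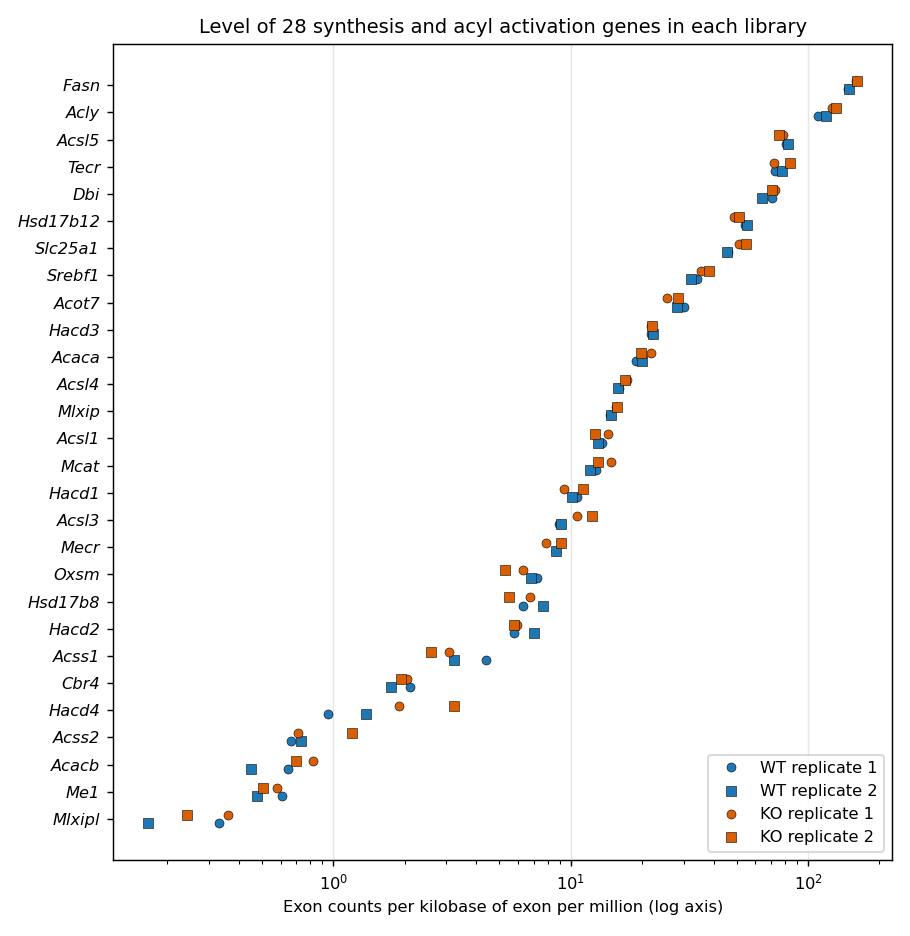
Level of each gene in the 4 libraries, in RPKM on a log10 axis, ordered by the WT mean. Fasn and Acly lead in all libraries, and the genes span from Fasn at 147.8 to Mlxipl at 0.249 in WT.

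By RPKM 1 form led within each enzyme family, in the same order in all 4 libraries. The cytosolic carboxylase gene Acaca stood 26.6 to 44.1 times above Acacb, whose product sits at the mitochondrial surface and regulates fatty acid import there. Among the long-chain acyl-CoA synthetases, which activate free fatty acids, Acsl5 stood 4.46 to 5.19 times above Acsl4, Acsl4 1.18 to 1.33 times above Acsl1, and Acsl1 1.03 to 1.52 times above Acsl3. The acetate-activating gene of mitochondria, Acss1, stood 2.17 to 6.64 times above its cytosolic counterpart Acss2. Of the 3-hydroxyacyl-CoA dehydratase genes, Hacd3 stood 1.97 to 2.33 times above Hacd1, Hacd1 1.45 to 1.95 times above Hacd2, and Hacd2 1.79 to 6.07 times above Hacd4. Some of these orders depend on the division by deposited exon length. In CPM, Acsl1 lay above Acsl4 (means of 125 and 85.8 in WT), with lengths of 9461 and 5405 bases. In KO replicate 2, Acss2 lay above Acss1 (12.1 and 10.7 CPM), with lengths of 10163 and 4128 bases. Only 51.7% of the exon reads of Acaca, 54.5% of those of Hacd1 and 29.2% of those of Hsd17b8 were uniquely placed, so the levels of these genes are less certain.

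All 7 cytosolic synthesis genes had positive log2 fold changes of exon counts, with a median of 0.17, and none passed the test. The exon value of Me1 was near 0 and ran from -0.17 to 0.17 with a library left out, so its sign was not stable. In intron reads 5 of the 7 were positive, with a median of 0.10, and Acly and Me1 had -0.03 and -0.11. Fasn (ENSMUSG00000025153, chromosome 11, 120805846 to 120824547, minus strand, mm10) had 1609 and 1626 CPM in the WT libraries and 1740 and 1761 in the KO libraries. Both KO libraries lay above both WT libraries. The log2 fold change was 0.11 (SE 0.05, 95% interval -0.01 to 0.24; edgeR adjusted p = 0.268). For Acly, ATP citrate lyase, which cleaves citrate to acetyl-CoA, WT libraries held 582 and 629 CPM and KO libraries 668 and 692. Its groups did not overlap either (log2 fold change 0.17, SE 0.06; edgeR adjusted p = 0.189). Slc25a1, the mitochondrial citrate carrier, stood at 99.8 and 99.2 CPM in WT against 111 and 119.7 in KO. That is a log2 fold change of 0.21 (SE 0.06; edgeR adjusted p = 0.121), again with no overlap. The remaining log2 fold changes were 0.10 for Acaca, 0.47 for Acacb, 0.45 for Acss2 and 0.00 for Me1, the cytosolic malic enzyme that yields NADPH. Acss2 rested on KO replicate 2, at 12.1 CPM against 6.72 to 7.46 in the other libraries, and its log2 fold change was 0.03 without that library. Over all 28 genes the groups failed to overlap in 14 of 28, against 53.8% of all genes tested; KO lay above WT in 10 and below in 4, against 26.8% and 27.0% of all genes. Of the 7 adipocyte markers, whose sum was given above as higher in KO, Lep had no count, and Adipoq and Plin1 had at most 1 count in any library. Fabp4, the only one tested, was at 1.97 ± 0.0537 CPM in WT and 6.09 ± 3.90 in KO (SD, n = 2; edgeR adjusted p = 0.121). The part of these markers in the values above was not tested.

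The promoters of Fasn, Acly and Slc25a1, 3 genes of the route from citrate to palmitate, are shown with that of Hacd4, the gene of largest exon difference. Each runs from 250 bases before to 50 bases after the RefSeq start in GRCm38.p6, on the minus strand, and lies at chr11:120824498-120824797 (Fasn), chr11:100527951-100528250 (Acly), chr16:17928170-17928469 (Slc25a1) and chr4:88438866-88439165 (Hacd4). Capitals mark the letters searched for on both strands, which were the E-box CACGTG, the sterol regulatory element TCACNCCAC, the NF-Y box CCAAT and the GC box GGGCGG.
Fasn: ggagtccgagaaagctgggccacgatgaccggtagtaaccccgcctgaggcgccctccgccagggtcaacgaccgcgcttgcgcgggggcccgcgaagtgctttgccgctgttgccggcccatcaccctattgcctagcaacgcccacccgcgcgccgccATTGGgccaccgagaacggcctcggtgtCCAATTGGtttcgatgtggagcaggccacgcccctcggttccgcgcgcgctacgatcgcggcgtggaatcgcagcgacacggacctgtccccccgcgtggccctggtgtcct
Acly: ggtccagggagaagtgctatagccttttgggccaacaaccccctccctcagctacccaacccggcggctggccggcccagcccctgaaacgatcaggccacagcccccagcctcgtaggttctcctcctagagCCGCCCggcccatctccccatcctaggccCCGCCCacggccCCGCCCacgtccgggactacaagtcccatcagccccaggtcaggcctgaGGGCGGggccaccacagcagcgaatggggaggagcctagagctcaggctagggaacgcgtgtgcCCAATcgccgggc
Slc25a1: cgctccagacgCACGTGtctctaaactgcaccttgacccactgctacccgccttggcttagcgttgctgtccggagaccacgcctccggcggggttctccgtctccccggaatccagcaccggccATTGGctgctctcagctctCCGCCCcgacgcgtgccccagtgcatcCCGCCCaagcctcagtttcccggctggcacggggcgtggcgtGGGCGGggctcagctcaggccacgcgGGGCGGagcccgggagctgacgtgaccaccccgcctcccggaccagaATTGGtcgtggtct
Hacd4: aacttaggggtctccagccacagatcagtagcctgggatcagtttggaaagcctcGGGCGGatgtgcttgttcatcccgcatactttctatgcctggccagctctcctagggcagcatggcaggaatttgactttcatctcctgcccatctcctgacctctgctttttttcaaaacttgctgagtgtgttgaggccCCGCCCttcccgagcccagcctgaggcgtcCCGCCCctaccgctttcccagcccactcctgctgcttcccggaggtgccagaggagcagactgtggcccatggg

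The Fasn window held 3 NF-Y boxes and no GC box, with CCAAT at -62 and its reverse complement at -59 sharing letters. That of Acly held 1 NF-Y box and 4 GC boxes. Slc25a1 had an E-box at -239, 2 NF-Y boxes and 4 GC boxes, and Hacd4 had 3 GC boxes and none of the other letters. For 28 of the 30 genes the RefSeq table gave 38 promoters. NF-Y boxes were in 57.9% of these against 37.4% of all 32851 promoters, and GC boxes in 65.8% against 35.7%. E-boxes were in 7.89% against 7.15%, and the sterol regulatory element in 2 (5.26%, of Acsl1 and Mlxipl) against 1.24%. These matches are letters only and describe the windows, not binding.

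The 3 transcription factor genes had positive exon log2 fold changes, and none passed the test. Srebf1, which encodes SREBP1, had 192 and 181 exon CPM in WT against 199 and 216 in KO, without overlap. Its exon log2 fold change was 0.15 (SE 0.07; edgeR adjusted p = 0.243). Intron reads were 99.4 and 101 CPM in WT against 118 and 124 in KO, also without overlap, with a log2 fold change of 0.27 (SE 0.07; edgeR adjusted p = 0.0781). On the opposite strand Srebf1 overlaps Rai1, which had 162 and 171 exon CPM in WT against 193 and 186 in KO (log2 fold change 0.18, SE 0.06; edgeR adjusted p = 0.143) and more intron reads than Srebf1, and the part of its reads was not tested. The difference between the exon and intron changes of Srebf1 was -0.12 (SE 0.08; edgeR adjusted p = 0.597). Mlxip, which encodes MondoA, had exon and intron log2 fold changes of 0.08 and 0.07. Mlxipl, which encodes ChREBP, was at 1.38 ± 0.645 CPM in WT against 1.67 ± 0.469 in KO (SD, n = 2) and had too few intron reads for a test. Its exon log2 fold change of 0.30 ran from -0.15 to 0.84 with a library left out, so its sign was not stable.

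Among the elongation partners, Hacd4 had the largest difference of the whole set. Hacd4 (ENSMUSG00000028497, chromosome 4, 88396144 to 88438928, minus strand, mm10) belongs to the family of dehydratases of the elongation cycle. It had 63 and 111 exon counts in WT and 115 and 212 in KO, which scale to 6.42 and 9.30 CPM and to 12.8 and 21.8 CPM. Both KO libraries lay above both WT libraries, although replicates of each genotype differed widely. The log2 fold change was 1.13 (SE 0.29, 95% interval 0.44 to 1.83; edgeR adjusted p = 0.0947), which missed the threshold, while DESeq2 gave an adjusted p of 0.0255. It was 0.69 without KO replicate 2 and 1.46, past the threshold, without KO replicate 1. In the authors' deposited table, from an EDGE test of the same libraries, Hacd4 had a fold change of 2.17 and a corrected p of 0.0038. That test put 888 of the 51826 features under a corrected p of 0.05. Reads over splice junctions, looked at after the data were seen, numbered 2 and 12 in WT and 10 and 19 in KO (log2 fold change 1.25, edgeR adjusted p = 0.320).

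The other elongation partners had small values. Hsd17b12, the ketoreductase of the cycle, had 131 and 133 CPM in WT against 118 and 124 in KO. Both KO libraries lay below WT (log2 fold change -0.13, SE 0.06; edgeR adjusted p = 0.255). Tecr, the enoyl reductase, had a log2 fold change of 0.06, and Hacd1 and Hacd3 had -0.01 and -0.00. Hacd2 had 20.8 and 25.3 exon CPM in WT against 21.5 and 20.8 in KO, which overlap (log2 fold change -0.13, SE 0.13; edgeR adjusted p = 0.631).

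Among the acyl-CoA synthetases Acsl3 had the largest exon difference, which missed the threshold. Its product sits on the endoplasmic reticulum and on nascent lipid droplets. The libraries held 38.8 and 39.9 CPM in WT against 46.3 and 53.7 in KO, without overlap. The exon log2 fold change was 0.35 (SE 0.10; edgeR adjusted p = 0.124) and the intron one 0.26 (SE 0.10; edgeR adjusted p = 0.190), so the readouts had the same sign. Acsl4, known for its preference for arachidonate, had an exon log2 fold change of 0.11, Acsl1 had 0.03 and Acsl5 had -0.08. Dbi, which carries acyl-CoA in the cytosol, had 0.09, and Acot7, a thioesterase that releases the free acid, had -0.11. Acsl3 overlaps Utp14b on the same strand, which had mean exon levels of 2.89 CPM in WT and 3.10 in KO. On the opposite strand Acsl5, Mcat, Oxsm and Acss2 overlap Zdhhc6, Tspo, Ngly1 and Gss. The part of reads from these overlapping genes was not tested.

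Of the 6 mitochondrial genes tested in exon counts, 4 had negative log2 fold changes, and none passed the test. Acss1, which activates acetate in the mitochondrial matrix, had 18.1 and 13.3 exon CPM in WT against 12.7 and 10.7 in KO. KO lay below WT, by less than the gap between the WT libraries (log2 fold change -0.42, SE 0.20; edgeR adjusted p = 0.279). In intron reads it had 22.7 and 26.7 CPM in WT against 18.5 and 19.0 in KO (log2 fold change -0.40, SE 0.14; edgeR adjusted p = 0.159). Oxsm, the condensing enzyme of mitochondrial synthesis, had an exon log2 fold change of -0.27 (SE 0.12; edgeR adjusted p = 0.264). Mecr, the enoyl reductase, had -0.04, and Hsd17b8 and Cbr4, which form the ketoreductase, had -0.19 and 0.05. Mcat, which loads malonyl units onto the carrier protein, had 0.17. The median of these 5 synthesis genes was -0.04. On the same strand Hsd17b8 overlaps Gm20427, which had mean exon levels of 3.52 CPM in WT and 2.07 in KO. Its log2 fold change was -0.73 (SE 0.42; edgeR adjusted p = 0.370), and the part of its reads in the value of Hsd17b8 was not tested.

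Intron reads were tested for 26 of the 30 genes, and edgeR called 0 of them at an adjusted p under 0.05, against 4.81% of all 12359 genes tested (2.59% higher and 2.23% lower). DESeq2 also called 0, against 3.79% of all genes. At an unadjusted p under 0.05 there were 5 against 19.8% of all genes. Srebf1, Fasn and Acsl3 had higher values in KO (10.2% of all genes) and Hacd2 and Acss1 lower ones (9.59%). Of the 26 values 18 were positive (69.2%, against 51.1%), and the median was 0.09 against 0.01. The groups failed to overlap in 18 (69.2%, against 51.7% of all genes), with KO above WT in 14 (26.3% of all genes) and below in 4 (25.4%). Fasn had 49.98 and 52.9 intron CPM in WT against 60.6 and 67.5 in KO, without overlap. That is a log2 fold change of 0.32 (SE 0.09, 95% interval 0.10 to 0.53; edgeR adjusted p = 0.106). Intron reads of Fasn were 2.32% of its unique reads in WT, so this value rests on a small fraction of its RNA. Hacd2, whose reads were 88.4% intronic in WT, had 209 and 222 intron CPM in WT against 185 and 151 in KO. KO lay below WT there (log2 fold change -0.36, SE 0.10; edgeR adjusted p = 0.0947). Srebf1, Fasn and Hacd2 passed the threshold when KO replicate 1 was left out, with adjusted p = 0.0338, 0.0423 and 0.00322 in edgeR, in a fit where 1299 genes in all passed against 595 with 4 libraries.

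**Figure D3:**
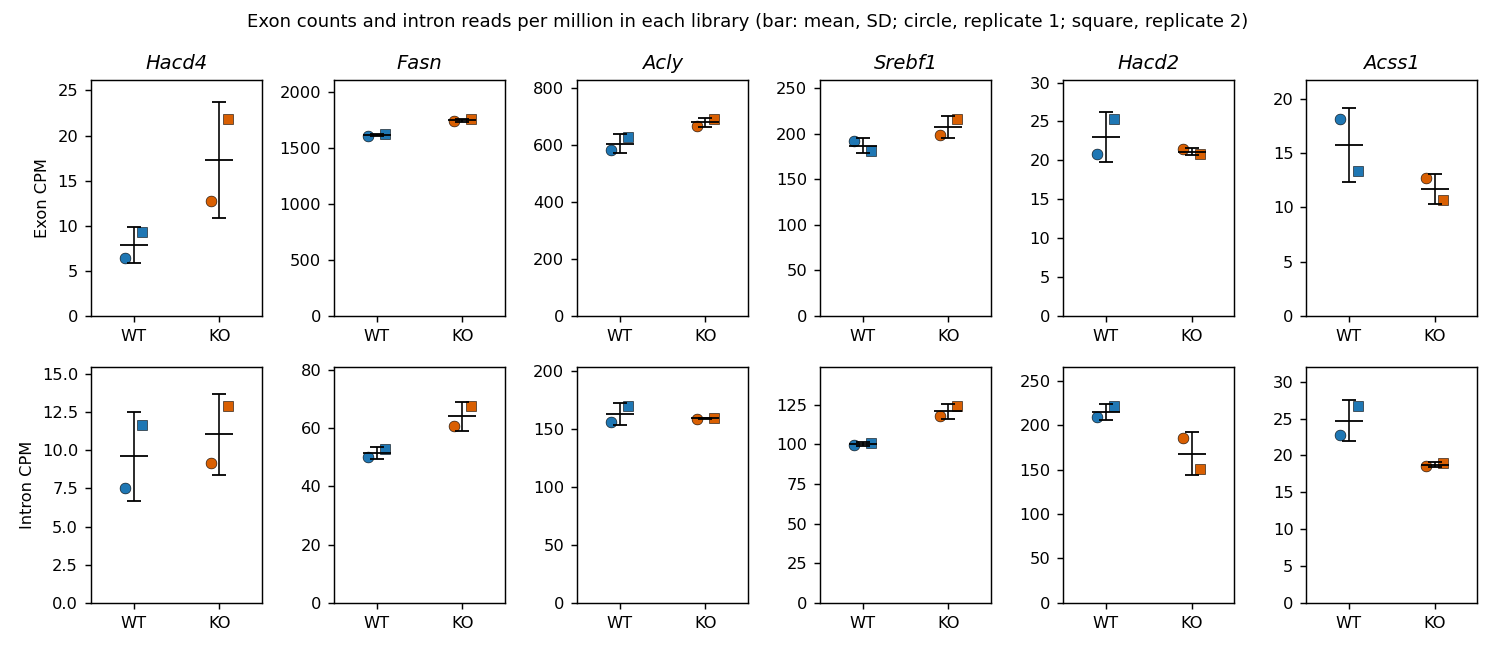
Exon counts (top) and intron reads (bottom) in CPM in each library for 6 genes, with mean and SD bars; circles are replicate 1 and squares replicate 2. Hacd4 exon values separate by genotype (6.42 and 9.30 against 12.8 and 21.8 CPM) while its intron values overlap, and Fasn and Srebf1 intron values lie higher in KO.

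Exon and intron changes were then compared within the same libraries. The exon change minus the intron change passed at an adjusted p under 0.05 in edgeR for 1 of 26 genes, Hacd4, against 1.31% of the 10366 genes tested (0.897% positive and 0.415% negative). At an unadjusted p under 0.05 there were 4, 2 positive (6.76% of all genes) and 2 negative (5.23%), against 12.0% of all. The difference was positive in 12 of the 26, against 50.3% of all genes. Intron reads of Hacd4 were 7.53 and 11.7 CPM in WT against 9.18 and 12.9 in KO, which overlap (log2 fold change 0.19, SE 0.26; edgeR adjusted p = 0.739). For each intron read of Hacd4 there were 1.15 and 1.07 exon counts in WT and 1.85 and 2.16 in KO. This ratio varied less between replicates than the level did, and the groups did not overlap. The exon change exceeded the intron change by 0.94 on the log2 scale (SE 0.23, 95% interval 0.47 to 1.41; edgeR adjusted p = 0.0251). Leaving out KO replicate 2, WT replicate 1 or WT replicate 2 ended this call (differences of 0.77, 0.98 and 0.88, adjusted p = 0.522, 0.0529 and 0.188 in edgeR). On the opposite strand lies Focad, which overlaps Hacd4, and the sources used here do not say whether strand was used in counting. Focad had 53.3 CPM in WT against 51.8 in KO, with an exon log2 fold change of -0.04. Its intron reads were 219.7 and 204 CPM in WT against 193 and 177 in KO, without overlap (log2 fold change -0.19, SE 0.08; edgeR adjusted p = 0.218), far above those of Hacd4. The part of Focad reads in the Hacd4 values was not tested.

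Of the other genes, Acly had 5.03 and 4.97 exon counts per intron read in WT and 5.62 and 5.55 in KO, without overlap. Its exon minus intron difference was 0.20 (SE 0.07; edgeR adjusted p = 0.168). Fasn went the other way, with 43.3 and 41.1 exon counts per intron read in WT and 38.3 and 33.4 in KO. The difference for Fasn was -0.20 (SE 0.09; edgeR adjusted p = 0.308). Hsd17b12 had ratios of 0.539 and 0.548 in WT and 0.477 and 0.474 in KO, with a difference of -0.15 (SE 0.07; edgeR adjusted p = 0.351). These 3 had an unadjusted p under 0.05 and missed the adjusted threshold. Next by p came Hacd2, with a difference of 0.23 (SE 0.12; edgeR adjusted p = 0.436). For Slc25a1, Acsl3 and Acss1 it was 0.12, 0.09 and -0.01.

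**Figure D4:**
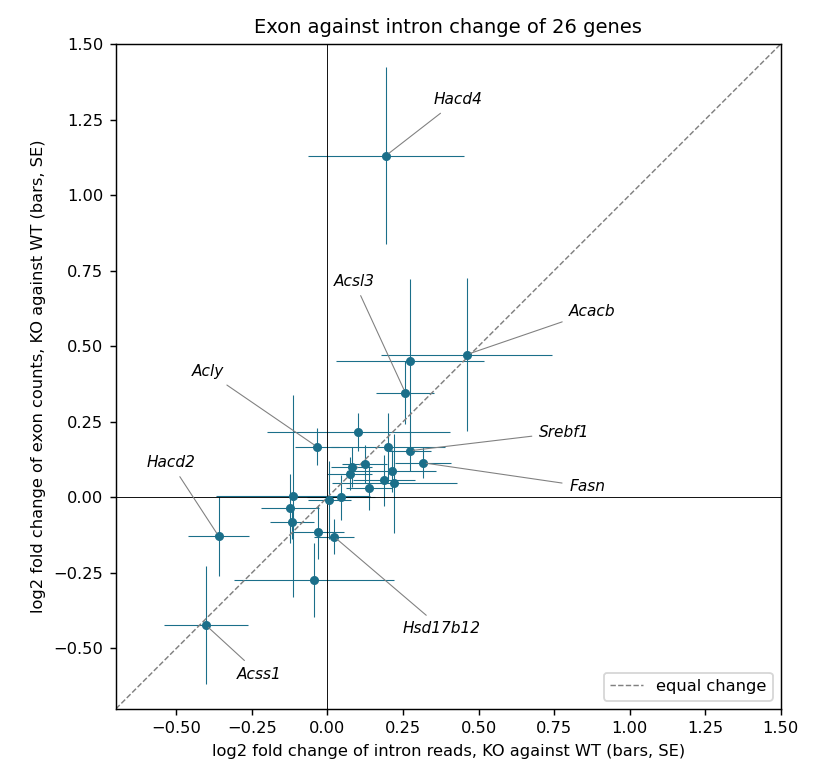
Log2 fold change of exon counts against that of intron reads, KO against WT, for the 26 genes tested in both; bars are SE and the dashed line marks equal change. Hacd4 lies far above the line (1.13 against 0.19), Acss1 and Acacb lie on it, and Fasn lies below it (0.11 against 0.32).

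Genes that feed or govern the same routes were counted in 6 lists of 67 genes, of which 58 were tested in exon counts. None passed as higher and 1, Slc27a2, as lower, against 1.82% and 0.98% of all genes, and 15 had an unadjusted p under 0.05, against 20.8% of all genes tested. Of the 58, 30 were positive, with a median of 0.00. Slc27a2, an acyl-CoA synthetase for very long chains, had 22 and 26 exon counts in WT and 4 and 2 in KO, or 2.21 ± 0.0438 and 0.325 ± 0.169 CPM (SD, n = 2). It fell by 2.73 on the log2 scale (SE 0.50; edgeR adjusted p = 0.0444). DESeq2 and limma-voom gave adjusted p = 0.106 and 0.0542. The call was also lost without KO replicate 2, WT replicate 1 or WT replicate 2 (adjusted p = 0.149, 0.347 and 0.242 in edgeR).

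Of the SREBP1, LXR and MLX control list, 12 genes were tested in exon counts, none passed and 8 were positive. Insig1, which retains SREBP precursors in the endoplasmic reticulum and is itself an SREBP target, had 142 and 149.9 exon CPM in WT against 171 and 178 in KO (log2 fold change 0.26, SE 0.06; edgeR adjusted p = 0.0694). In intron reads Insig1 was the 1 gene called of 52 tested over the 6 lists, against 4.81% of all genes, with 33.3 and 34.6 CPM in WT against 44.3 and 51.2 in KO. It rose by 0.49 on the log2 scale (SE 0.11; edgeR adjusted p = 0.0452). DESeq2 gave an adjusted p of 0.182, and leaving out KO replicate 2, WT replicate 1 or WT replicate 2 gave 0.190, 0.213 and 0.132 in edgeR. Over the 6 lists 38 of the 52 intron values were positive, against 51.1% of all genes, with a median of 0.09. Rxra, a partner of LXR, had an exon log2 fold change of 1.07 (edgeR adjusted p = 0.0746).

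No gene of the other 4 lists passed either test in edgeR. For control of acetyl-CoA carboxylase, 8 genes were tested in exon counts and 3 were positive. There Mid1ip1, which promotes polymerization of the carboxylase, had a log2 fold change of 0.22 (edgeR adjusted p = 0.133), and Prkag1, a subunit of AMP-activated kinase, had -0.18 (edgeR adjusted p = 0.346). Of 11 NADPH and citrate supply genes 4 were positive. Pgd of the pentose phosphate pathway had -0.23 (edgeR adjusted p = 0.109), and the mitochondrial malic enzyme gene Me2 had 0.23 (edgeR adjusted p = 0.131). Of 7 genes of the mitochondrial carrier protein and lipoic acid 1 was positive, with a median of -0.14. Aasdhppt, which attaches the carrier's prosthetic arm, had -0.36 (edgeR adjusted p = 0.147), and Dld, a lipoamide enzyme, had -0.21 (edgeR adjusted p = 0.188). Of 13 thioesterases and binding proteins 9 were positive, with a median of 0.14. Acot1, a cytosolic thioesterase of long chains, had 29 and 49 exon counts in WT and 78 and 168 in KO (log2 fold change 1.87, edgeR adjusted p = 0.0504). DESeq2 gave it an adjusted p of 0.000652. In edgeR it passed with upper quartile scaling (adjusted p = 0.0456), unique exon reads (0.0407) and no filter on low counts (3.99e-14). The fit with no filter called 1677 genes in all, against 329 in the main test. Of 13 alternative settings 6 called Acot1, those named here among them, and the others did not. Its log2 fold change ran from 1.28 to 2.27 with a library left out. Them6 had 0.69 (edgeR adjusted p = 0.0551).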

How the data were processed

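Per the labels' protocols, Trizol was used for extraction and a NEBNext Ultra Directional kit, which keeps strand, for the libraries. Sample titles gave the groups. The build is mm10, per the submitters' processing notes; the sources used here do not name the aligner, the counter or the strand setting. Per feature, the deposited table gives whole-number counts (exon counts, unique intron reads and junction reads), per the file headers, and exon lengths. The exon counts used here equal unique exon reads plus non-unique exon-exon reads in every row. It also holds the authors' p-value, corrected p-value and signed fold change from an EDGE test, per the file headers; this fold is a signed score in the deposited table, negative where KO is lower.

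The members and gene lists were chosen with earlier results of these data known. Counts were filtered with filterByExpr (minimum count 10, total 15), scaled by TMM and tested with edgeR 4.0.16 in R 4.3.3 (quasi-likelihood, Benjamini-Hochberg over all genes tested, adjusted p under 0.05, no replicate block). Intron reads were treated alike, with their own filter and factors. The exon minus intron difference was the read type by genotype term of a model with library and read type. CPM use TMM-scaled library sizes, and RPKM divides them by exon length. Alternatives used RLE, upper quartile or exon library scaling, DESeq2 1.42.0, limma 3.58.1 (voom), other filters, read classes and thresholds, a replicate block, and each library left out. Python 3.11.15 with pandas 2.3.3 handled the tables, and promoters came from RefSeq (GRCm38.p6). Named with full statistics were members past the threshold in any test, the 5 with the smallest p in each, and of the other lists those past the threshold or the 2 with the smallest p.

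The tests were tried on simulated counts with known changes before use. There, unchanged genes made up more of the calls than the nominal rate, and small changes were mostly missed, so single calls near the threshold are uncertain and a gene not called may still differ. Floors of 3 counts cover counting error only, since no molecular identifiers are described. Counts of the libraries of a group differed beyond counting noise (chi-square over degrees of freedom 4.42 in WT and 6.54 in KO), which does not show whether the spread is technical. A marker gene of the lists is not reported here.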

Additional observations from a re-analysis of the deposited data

How the results depend on the processing

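Called exon genes numbered 329 in the main test, 1677 with no filter on low counts, 875 with the replicate number as a block, 850 at an adjusted p of 0.1, and 14 to 1449 with 1 library left out. Among the 28 synthesis and activation genes the number was 0, against 1 with DESeq2, 2 with no filter, 1 with the block, 1 at 0.1 and 0 to 2 with a library left out. For intron reads 595 genes became 1565 with no filter, 1430 with the block, 1046 at 0.1 and 287 to 1299 with a library left out, and the 0 of 26 became 2, 3, 2 and 0 to 3. For the exon minus intron difference 136 genes became 253 with the block, 254 at 0.1 and 30 to 215 with a library left out, and the 1 of 26 became 0 to 1. What a shared replicate number marks is not stated. The deviations of same-numbered libraries correlated at 0.09 in exon counts and 0.04 in intron reads. This cannot show whether samples were paired. With the block Hacd4 passed in exon counts (adjusted p = 0.0111) and Hacd2, Srebf1 and Fasn in intron reads (0.00763, 0.0295 and 0.0292, edgeR). The adjusted p of Hacd4 for the exon minus intron difference ran from 0.00878 to 0.522. Fits with a library left out assume that the lone library varies like the other group. Over all results and settings 903 values kept their direction and side of the threshold, or moved by less than their error. Another 41 moved by more, 12 of genes given with full statistics turned in sign, 33 gained and 14 lost a call. Changes of sign without a call in the other genes are not among the 12. Among the genes given with full statistics, signs turned as follows, and the cause was not tested. The intron log2 fold change of Acly was 0.0068 with exon library scaling. With a library left out, the exon value of Hacd2 ran from -0.26 to 0.018, and intron values of Acly from -0.10 to 0.026, of Hacd4 from -0.080 to 0.55 and of Slc25a1 from -0.18 to 0.35. Differences ran from -0.018 to 0.18 for Acsl3, from -0.36 to 0.32 for Acss1 and from -0.19 to 0.44 for Slc25a1. Other genes also changed sign with a library left out. Some had values near 0, such as Tecr (exon, -0.06 to 0.17) and Acaca (difference, -0.07 to 0.11). Others did not, such as Mlxipl (exon, -0.15 to 0.84) and Oxsm (difference, -0.54 to 0.12). Exon intervals were widest for Mlxipl, Me1, Hacd4, Acss2 and Acacb.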
